A study of Homo sapiens with 4 samples.

Results

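The CC chemokine genes CCL3L3, CCL4L2, CCL3, CCL4, CCL5 and CCL2 on chromosome 17 were examined for H3K27ac, acetylation of histone H3 found at promoters and enhancers in use. They are 6 of 20035 protein-coding genes placed on GRCh38, and a locus was defined here as a gene body plus flanks of 10 kb, with peaks shared by neighbouring loci counted once in sums. The group was chosen by a value of these same libraries, the gain in cover within 10 kb of the 5′ end of CCL3L3, so the values below are a description without tests. Cover means the summed length of sequence under called peaks. H3K27ac was mapped by tagmentation-based ChIP-Seq in MOLM13 cells, a human AML line with an MLL-AF9 fusion. The treatments, each of 16 h, were 500 nM of the Menin inhibitor SNDX-50469 together with 500 nM of the BET inhibitor OTX015, and 500 nM of OTX015 alone. Both groups thus carry OTX015, neither is an untreated control, and each has 1 ChIP library of 1 cell line, so no difference had a replicate check. The comparison addresses what Menin inhibition adds to BET inhibition.

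The deposited lists hold 86207 peaks for the combination and 55852 for OTX015, without read numbers. The constant background solved from the lowest peaks was 1.47 fragments per base in the combination library and 0.764 in the OTX015 library. The ratio of these backgrounds, 1.92, stands in below for a difference in depth, which was not measured. A region needed 4.76 times background to enter the combination list and 6.54 times background to enter the OTX015 list. The granule gene MPO, a myeloid marker, had 10.1 kb of cover in the combination list and 5.61 kb in the OTX015 list. The T cell gene CD3E had no peak in either list.

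CC chemokines are small secreted proteins that draw leukocytes along a gradient by binding G protein-coupled receptors. CCL3 and CCL4, also known as MIP-1α and MIP-1β, are made by activated monocytes, macrophages and lymphocytes. CCL3 and CCL5 (RANTES) act on the receptor CCR1, and CCL2 (MCP-1) draws monocytes through CCR2. CCL3L3 and CCL4L2 are extra copies of CCL3 and CCL4, and the number of such copies varies between people. In monocytes these genes are known as targets of inflammatory signalling through NF-kB.

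The promoters of CCL3L3 and CCL3 are shown because, with the combination, a peak was found at one and not at its near copy. RefSeq promoter sequences of GRCh38.p14 were matched for 2 of the 6 genes. The 250 bases before each 5′ end are given on the minus strand, 5′ to 3′, from chr17:36196759-36197008 for CCL3L3 and chr17:36090144-36090393 for CCL3. Capitals mark bases that differ from, or have no partner in, the other gene.
CCL3L3: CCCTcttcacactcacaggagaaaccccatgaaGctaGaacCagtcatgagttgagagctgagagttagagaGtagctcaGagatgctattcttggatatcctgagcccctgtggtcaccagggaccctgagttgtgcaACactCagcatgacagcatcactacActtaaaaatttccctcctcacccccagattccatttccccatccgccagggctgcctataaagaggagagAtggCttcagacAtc
CCL3: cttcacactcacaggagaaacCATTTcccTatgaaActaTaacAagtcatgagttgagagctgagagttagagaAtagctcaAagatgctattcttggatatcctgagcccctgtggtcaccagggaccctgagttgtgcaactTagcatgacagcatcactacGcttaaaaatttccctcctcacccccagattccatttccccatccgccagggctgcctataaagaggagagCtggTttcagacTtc
In the alignment 234 of 256 columns (91.4%) were identical, with 10 mismatched columns, 12 gap columns and a longest identical run of 70 bases. A combination peak covered 238 of the 250 bases shown for CCL3L3, whereas no OTX015 peak covered any of them, and the CCL3 promoter had no peak in either list. Motifs were searched on both strands. Both promoters held TATAAA, the TATA box, once, a motif in 10.7% of all 35116 promoter records of the same length. Both held the RUNX motif TGTGGT once (10.98% of records) and TTGCNNAA, a C/EBP motif, once (9.05%). Neither held TGANTCA, an AP-1 motif (6.57%), nor the 10-base NF-kB motif searched (1.73%). The promoters of this pair were thus alike in the motifs searched and, with the combination, unlike in cover. With OTX015, whose peaks had the higher entry level, neither promoter had a peak. The combination peak over the CCL3L3 promoter stood at a mean of 7.57 times background, and an OTX015 peak needed 6.54 times. That mean is taken along the whole peak, so the level at the promoter itself is not known. Whether acetylation there was lower with OTX015 was not tested.

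Read placement limits what can be said of the copies. Because a GRCh38 genome was not used, exact matches of 50-base windows were counted on chromosome 17 of GRCh37, whose set of copies differs from that of GRCh38. Of the windows in the CCL3L3 locus, 86.1% were also found in the locus of CCL3L1, another copy, but 16.1% in the CCL3 locus, and within the CCL3L3 gene body 5.81% were found in the CCL3 locus. Of the windows in the CCL4L2 locus, 92.0% were found in the CCL4L1 locus and 15.4% in the CCL4 locus. Over chromosome 17 as a whole, 92.4% of CCL3L3 windows and 93.3% of CCL4L2 windows occurred more than once, against 19.1% for CCL3, 17.9% for CCL4, 5.50% for CCL5 and 1.14% for CCL2. The extra copies therefore resembled each other far more than they resembled CCL3 and CCL4. CCL3L1 and CCL4L1 lie on chromosome 17 in GRCh37, but RefSeq places them on an alternate scaffold of GRCh38. The shares of repeated windows need not hold for GRCh38, on which the peaks were called. How reads with several matches were placed is not given in the sources used here. Acetylation of CCL3L3 and CCL4L2 cannot be told apart from that of further copies of the same unit. No input values were used, so the part of copy number in these peaks was not tested.

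Most of the mark in the 6 loci lay at the extra copies CCL3L3 and CCL4L2, and there it covered more with the combination when all peaks were counted. Peaks covered 16.0 kb of the 126 kb of loci (12.6%) with the combination and 8.74 kb (6.93%) with OTX015, a ratio of 1.82. The CCL3L3 and CCL4L2 loci held 14.7 kb of this with the combination and 8.02 kb with OTX015, and the other 4 loci held 1.29 kb with the combination and 0.729 kb with OTX015. CCL3L3 had 11.7 kb of cover in the combination list and 6.28 kb in the OTX015 list (1.87 times), and CCL4L2 had 6.07 kb with the combination and 2.84 kb with OTX015 (2.14 times). With both lists held to a common enrichment over background, CCL3L3 had 6.53 kb with the combination and 6.28 kb with OTX015. CCL4L2 had none with the combination and 2.84 kb with OTX015. The 6 loci turned to 6.53 kb with the combination and 8.74 kb with OTX015. That level is the entry level of the OTX015 list, so it could remove combination cover only. CCL3 had no peak in either list. CCL4 had 0.619 kb with the combination and no peak with OTX015, as did CCL2 with 0.431 kb. CCL5 was the only member covered less, with 0.236 kb in the combination list and 0.729 kb in the OTX015 list.

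Of the 5 members with cover, 4 were covered at least 1.5 times as much with the combination and 1 at least 1.5 times as much with OTX015. Among all 13090 protein-coding loci with cover, these shares were 48.6% toward the combination and 31.8% toward OTX015, and on chromosome 17 they were 47.5% toward the combination and 34.2% toward OTX015. The members' counts come from the contrast that chose them, and nothing was read from them. The median locus difference, combination minus OTX015, was 0.134 kb over all loci with cover and 0.108 kb on chromosome 17.

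**Figure D1:**
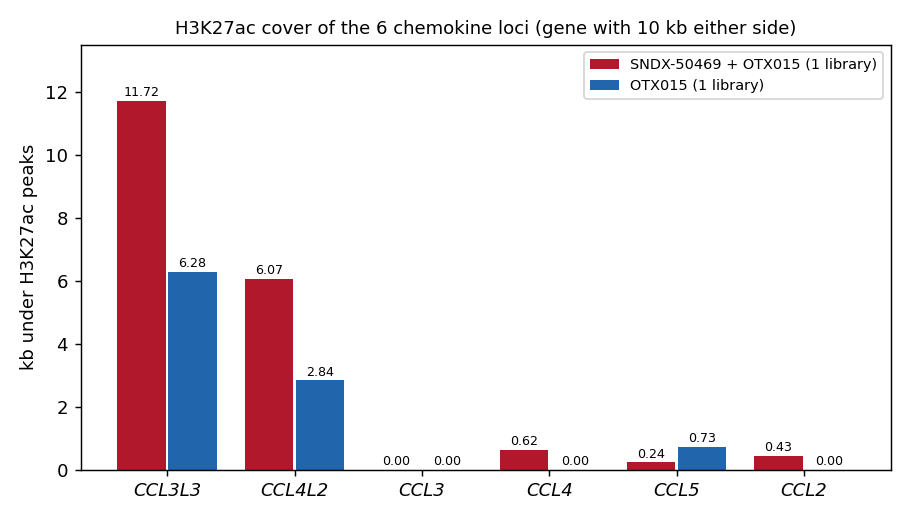
Length under H3K27ac peaks (kb, vertical axis) in each chemokine locus, with 1 bar per library for SNDX-50469 plus OTX015 (red) and OTX015 (blue). CCL3L3 stands at 11.7 kb with the combination and 6.28 kb with OTX015, and CCL4L2 at 6.07 kb with the combination and 2.84 kb with OTX015, whereas CCL3 has no peak and the others stay below 1 kb.

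At CCL3L3, the combination list had 13 peaks over 53.5% of the locus and the OTX015 list 11 over 28.7%. The peak over the gene body began at the same base in both lists. With the combination it ran for 1554 bp (chr17:36195443-36196996), past the 5′ end at 36196758, at a fold of 4.91 and a −log10 q of 4.05. With OTX015 it ran for 1105 bp (chr17:36195443-36196547) and stopped 211 bp inside the gene, at a fold of 4.30 and a −log10 q of 2.26. Fold here is the peak caller's ratio of pileup to background, each with a pseudocount of 1. Folds therefore do not compare directly between lists of unlike background. As multiples of background, the gene body peak stood at 7.57 with the combination and 8.61 with OTX015. Acetylation of the gene body was thus present in both lists, over 1316 bp with the combination and 1105 bp with OTX015. The 5′ end itself lay under a peak with the combination alone. Entry took 4.76 times background for combination peaks but 6.54 times for OTX015 peaks. On its mean, the combination peak stood above both levels. That mean is taken along the whole peak, so the level at the 5′ end itself is not known for either library. Whether it was lower with OTX015 was not tested.

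The peak of highest −log10 q on chromosome 17 in the combination list lay just past the 3′ end of CCL3L3. It was 122 bp long (chr17:36194639-36194760), with a fold of 5.998 and a −log10 q of 6.30, ranked 1 of 1336 combination peaks on the chromosome and 34 of all 86207, and met no OTX015 peak. The longest peak was 4450 bp (chr17:36182317-36186766) with the combination, at a fold of 4.77, over LOC128966684, a protein-coding gene model beside CCL3L3. OTX015 had a pair of peaks over the same stretch, of 1843 bp at a fold of 4.18 and of 1662 bp at a fold of 4.02. The first of them lay 907 bp outside the locus. The combination peak and the second OTX015 peak crossed the edge of the locus, so their lengths are in part outside it. As multiples of background, the combination peak stood at 7.33 and the OTX015 pair at 8.33 and 7.98. In the OTX015 list the highest peak of the locus was 225 bp long (chr17:36187613-36187837), with a fold of 4.96 and a −log10 q of 3.25, and it ranked 21 of 1092 on the chromosome. The combination peak at this position was 311 bp long, at a fold of 5.18 and a −log10 q of 4.38. It stood at 8.03 times background, and the OTX015 peak it met at 10.1 times.

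Between LOC128966684 and CCL3L3, a combination peak of 2643 bp (fold 4.37) spanned a stretch where OTX015 had a peak of 930 bp (fold 3.86) and one of 629 bp (fold 4.30). Upstream of the 5′ end of CCL3L3, a combination peak of 1295 bp (fold 4.11) met OTX015 peaks of 342 bp (fold 3.65) and 246 bp (fold 4.54). Each of these combination peaks was longer than the OTX015 peaks it met, and they overlapped the 629 bp peak over 73.4% and the 342 bp peak over 31.9% of their lengths. Over the CCL3L3 locus, 5.60 kb lay under peaks of both lists, 6.12 kb under combination peaks alone and 0.672 kb under OTX015 peaks alone. The shared bases made up 47.8% of the combination cover and 89.3% of the OTX015 cover.

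**Figure D2:**
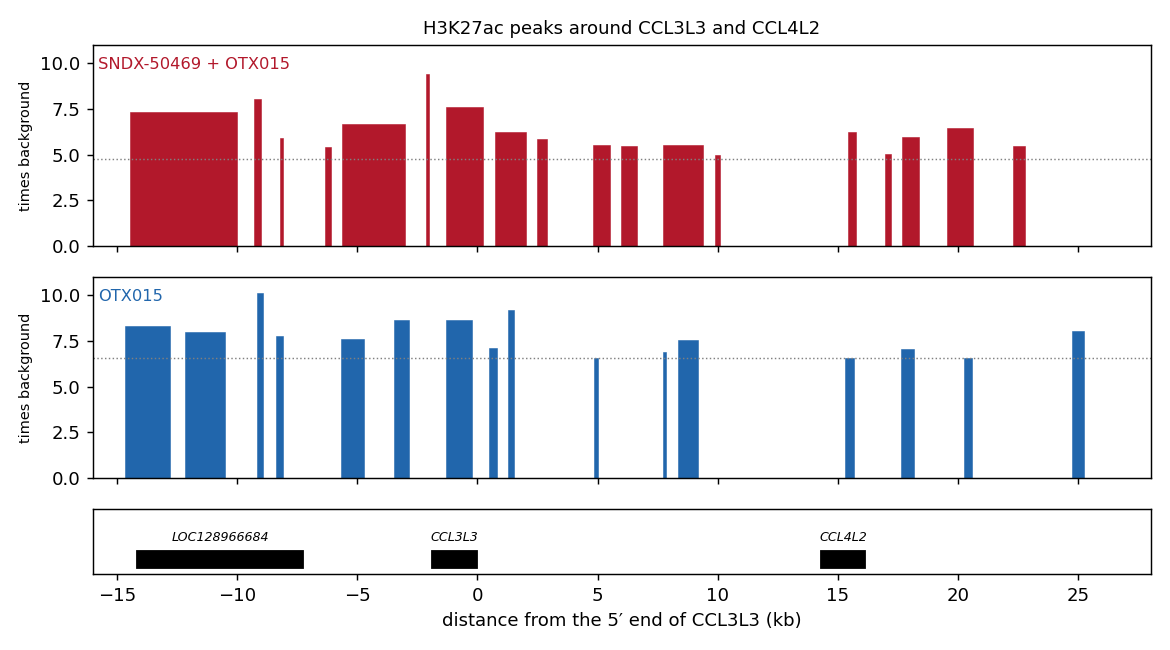
H3K27ac peaks by distance from the 5′ end of CCL3L3 (kb, horizontal axis) and by mean pileup as a multiple of background (vertical axis), with SNDX-50469 plus OTX015 above OTX015, gene bodies at the foot and a dotted line at the lowest peak of each list. Of the OTX015 peaks of the CCL3L3 and CCL4L2 loci, 14 of 15 meet a combination peak, and the peak over the CCL3L3 gene body stands at 7.57 times background with the combination and at 8.61 times with OTX015.

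CCL4L2, the CCL4 copy that follows CCL3L3, had 9 combination peaks and 7 OTX015 peaks. Of these, 4 combination peaks and 3 OTX015 peaks also lie in the CCL3L3 locus. Its 250 promoter bases carried no peak in either list. The nearest combination peak lay 1102 bp and the nearest OTX015 peak 990 bp inside the gene from the 5′ end. These peaks, of 349 bp with the combination (fold 4.12, −log10 q 2.58) and 373 bp with OTX015 (fold 3.40, −log10 q 1.102), overlapped by 261 bp. The gene body of CCL4L2 was therefore covered about equally, and the excess lay in the flanks. As multiples of background, these gene body peaks stood at 6.245 with the combination and 6.54 with OTX015. Downstream, a combination peak of 1060 bp (fold 4.25) contained an OTX015 peak of 313 bp (fold 3.40), whereas an OTX015 peak of 508 bp (chr17:36221482-36221989, fold 4.05) met no combination peak. In the 14.3 kb between CCL3L3 and CCL4L2, peaks covered 5.14 kb with the combination and 1.68 kb with OTX015.

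CCL3 and CCL4 themselves carried almost none of the mark. No peak of either list fell in the CCL3 locus or in the 13.7 kb between CCL3 and CCL4, and the peaks nearest to the 5′ end of CCL3 were 20452 bp away with the combination and 26547 bp away with OTX015. CCL4 had 2 combination peaks in its downstream flank, of 301 bp (fold 3.45, −log10 q 1.56) and 318 bp (fold 3.45, −log10 q 1.56), at 5.12 and 5.11 times background. Both are below the 6.54 times background that an OTX015 peak needed, so their absence from the OTX015 list is not evidence of a lower level there. Absence of a peak limits the mark only down to these entry levels.

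CCL5 and CCL2, which lie outside the copied unit, had short peaks near the lower limit of each list. In the CCL5 gene body the combination had peaks of 110 bp (fold 3.24, −log10 q 1.32) and 126 bp (fold 3.57, −log10 q 1.74), and OTX015 had none. The OTX015 peak of the CCL5 locus, 729 bp at a fold of 3.51 (chr17:35864903-35865631), lay in the flank within HEATR9, the neighbouring gene. CCL2 had combination peaks of 230 bp (fold 3.55) and 201 bp (fold 3.42), one on each side of the gene, and no OTX015 peak. The combination peaks of CCL5 and CCL2 stood at 4.76 to 5.33 times background, also under the 6.54 times that an OTX015 peak needed. None of the 6 combination peaks of CCL4, CCL5 and CCL2 met an OTX015 peak, nor did the OTX015 peak of CCL5 meet a combination peak. At CCL3L3 and CCL4L2, 14 of 15 OTX015 peaks (93.3%) met a combination peak by at least 1 bp. Of the combination peaks there, 11 of 18 (61.1%) met an OTX015 peak. Over all 6 loci these shares were 45.8% of 24 combination peaks and 87.5% of 16 OTX015 peaks. Over the whole lists, 21.0% of combination peaks and 33.3% of OTX015 peaks met the other list, and on chromosome 17 these shares were 22.1% of combination peaks and 27.01% of OTX015 peaks. Combination peaks covered 38.6% of the CCL3L3 and CCL4L2 loci against 0.751% of chromosome 17, and dense or longer peaks meet others more readily. These shares are thus no measure of agreement between the libraries.

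A second stretch of peaks lay between CCL4 and the copies, just outside the loci as defined. The CCL4 locus ended 497 bp short of a combination peak of 2846 bp (chr17:36116111-36118956, fold 3.92) and 1076 bp short of an OTX015 peak of 2159 bp (chr17:36116690-36118848, fold 3.92). From there, 20 combination peaks covered 18.2 kb within 38.1 kb, and 16 OTX015 peaks covered 10.8 kb within 34.7 kb. The stretch coincides with the noncoding RNA gene LOC101927369, of which 51.7% was covered with the combination and 31.5% with OTX015. Its peaks were weaker than those at CCL3L3. The highest fold was 3.92 and −log10 q 2.29 with the combination, against 4.57 and 2.64 with OTX015. Median peaks stood at 5.44 times background with the combination and 7.07 with OTX015, near the entry levels of 4.76 and 6.54. Repeated windows and copy number were not tested for this stretch. With 50 kb flanks, which take in this stretch, CCL4 had 18.9 kb with the combination and 10.8 kb with OTX015, and CCL3 had 14.1 kb with the combination and 7.99 kb with OTX015.

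The gene between this stretch and the copies, TBC1D3B, had no peak in its body in either list, and 97.4% of its 50-base windows occurred more than once on chromosome 17 of GRCh37. TBC1D3I, past CCL4L2, had none either. After the last peak of the CCL4L2 locus no combination peak followed for 325 kb and no OTX015 peak for 313 kb. Whether these gaps mark a lack of acetylation or of placed reads was not tested.

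**Figure D3:**
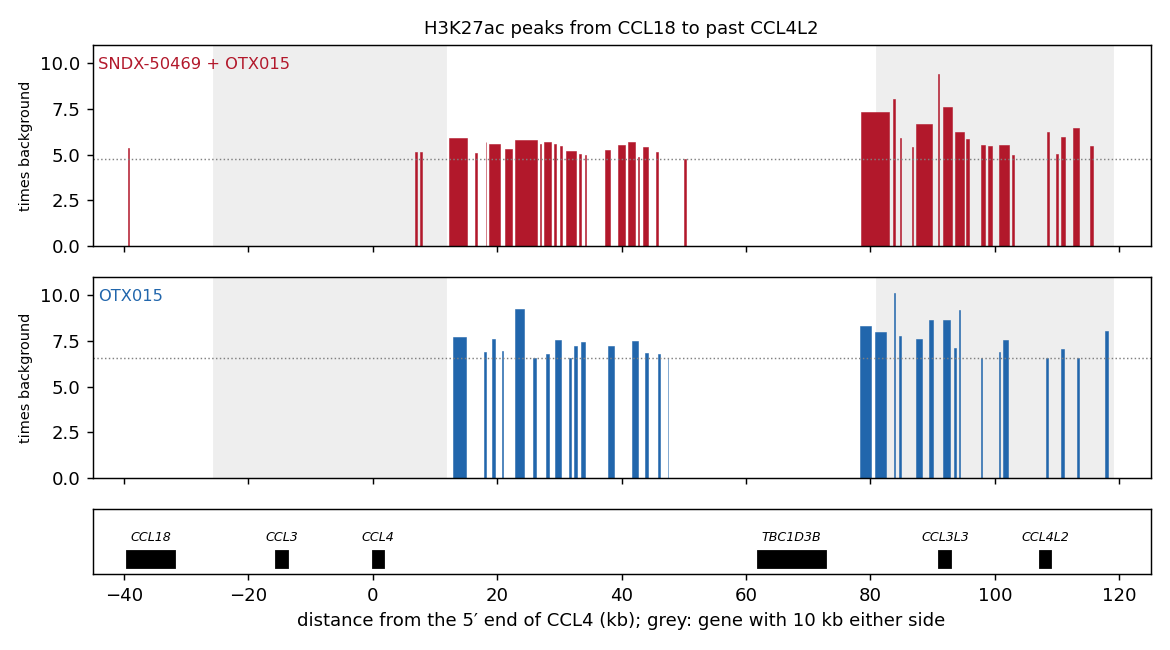
H3K27ac peaks by distance from the 5′ end of CCL4 (kb, horizontal axis) and by mean pileup as a multiple of background (vertical axis), with SNDX-50469 plus OTX015 above OTX015. Grey marks the loci of CCL3 with CCL4 and of CCL3L3 with CCL4L2. CCL3 has no peak, CCL4 has 2 short combination peaks, and the peaks gather in a stretch past CCL4 and around CCL3L3 and CCL4L2, with a gap at TBC1D3B.

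The combination peaks at the copies were longer, with a median of 576 bp against 373 bp with OTX015. Median lengths over the whole lists were 339 bp with the combination and 303 bp with OTX015. Over all 6 loci the order was reversed, at 333.5 bp with the combination and 440.5 bp with OTX015. The combination peaks at the copies also had lower mean enrichment over background. The mean is taken along a whole peak, so peaks that extend into weaker sequence have a lower one. The median peak of the CCL3L3 and CCL4L2 loci stood at 5.92 times background with the combination and at 7.60 times with OTX015, and the length-weighted means were 6.55 times with the combination and 7.86 times with OTX015. Over the whole lists the medians were 5.08 times with the combination and 6.90 times with OTX015, which differ in the same direction. The lower entry level of the combination library, whose background was higher, moves with the result. When both lists were held to the 6.54 times background that OTX015 peaks needed, 5 of the 24 combination peaks and all 16 OTX015 peaks were left. This level could remove combination peaks only, each as a whole on its mean. At CCL4L2 a combination peak of 1060 bp at 6.46 times background was dropped. The OTX015 peak of 313 bp that it contained, at 6.54 times, was kept. The cover left at this common enrichment is that given above, with the order of the lists turned for CCL4L2 and for the 6 loci together. That turn was therefore not read as a lower level with the combination.

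Stringency by q value gave another picture. Among peaks with a −log10 q of at least 2, the 6 loci had 11 combination peaks over 10.5 kb and 4 OTX015 peaks over 2.21 kb, out of 198 such combination peaks and 119 such OTX015 peaks on chromosome 17. A q value of a given size is reached at lower enrichment in a deeper library, so this comparison also moves with depth. With equal numbers of peaks from each list, the cover of the 6 loci was 15.8 kb with the combination and 8.74 kb with OTX015. The part of depth in the gain at CCL3L3 and CCL4L2 cannot be told apart from that of treatment with 1 library each.

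**Figure D4:**
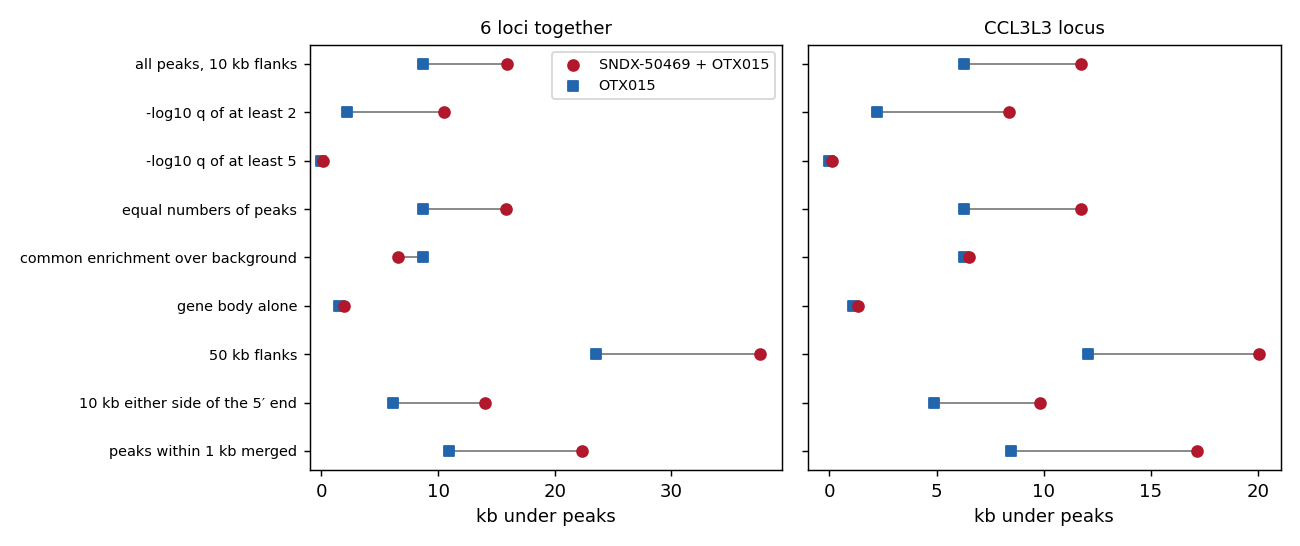
Length under H3K27ac peaks (kb, horizontal axis) in the 6 loci together (left) and in the CCL3L3 locus (right) under 9 settings, for SNDX-50469 plus OTX015 (red circles) and OTX015 (blue squares), 1 library each. The circles lie to the right in each setting of both panels, except at the common enrichment over background in the left panel, where the 6 loci have 6.53 kb with the combination and 8.74 kb with OTX015.

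Cover around the cluster was set beside that of chromosome 17, as a description of a group chosen for its gain. The CCL3L3 and CCL4L2 loci were covered over 38.6% with the combination and 21.1% with OTX015, and the other 4 loci over 1.46% with the combination and 0.827% with OTX015. Peaks covered 0.751% of chromosome 17 with the combination and 0.690% with OTX015, a ratio of 1.09, which was 1.08 without the member loci. In the 10 Mb around CCL3 cover was 1.06% with the combination and 0.876% with OTX015 (ratio 1.21), and in the surrounding 1 Mb it was 3.85% with the combination and 2.50% with OTX015 (ratio 1.54). Without the members the last ratio was 1.41, and most of that cover was the stretch at LOC101927369. In the 5′ window of 10 kb either side, CCL3L3 had 9.83 kb with the combination and 4.87 kb with OTX015, the value on which the group was chosen. This excess ranked 171 of 19119 genes over all chromosomes and 1 of 14391 outside the densely covered chromosomes 5, 6, 8, 13, 19 and 20.

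The other CC chemokines of 17q12, the band of this cluster, had few and short peaks that went both ways. Of 10 genes, 7 had cover, 3 of them more with the combination and 4 more with OTX015, with 0.644 kb in the combination list and 1.02 kb in the OTX015 list in all. The largest differences were at CCL13 (no peak with the combination and 0.766 kb with OTX015), CCL1 (0.142 kb with the combination and 0.766 kb with OTX015) and CCL16 (0.259 kb with the combination and no peak with OTX015). The OTX015 cover of CCL13 and CCL1 comes from the same peaks. Among the protein-coding neighbours of the cluster, RDM1 had 0.115 kb with the combination and 0.218 kb with OTX015. CCL15 (0.106 kb) and CCL18 (0.137 kb) had cover with the combination alone, and CCL23 (0.133 kb) with OTX015 alone. The TBC1D3B locus had 4.32 kb with the combination and 3.51 kb with OTX015, all in its flanks. That of LOC128966684, which overlaps the CCL3L3 locus, had 11.02 kb with the combination and 7.28 kb with OTX015.

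Of 10 CC chemokines on other chromosomes or bands, 4 had more and 2 less, led by CCL28, a mucosal chemokine, with 5.12 kb in the combination list and 2.27 kb in the OTX015 list. CCL25 (0.772 kb) and CCL17 (0.655 kb) had peaks with the combination alone. CCL28 lies on chromosome 5 and CCL25 on chromosome 19, both densely covered. Of 18 CXC and other chemokines, 6 had more, 1 had less and 11 had no peak. CXCL8, which encodes the neutrophil chemokine IL-8 and is also a target of NF-kB, had 3.07 kb with the combination and 0.992 kb with OTX015, XCL2 had 0.600 kb with the combination alone, and CXCL9 had 1.08 kb with the combination and 0.667 kb with OTX015. Each of these lists was small, and 48.6% of all loci with cover were past 1.5 times in the same direction.

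Receptors for the members include CCR1 and CCR2. CCR1, a receptor for CCL3 and CCL5, had 1.49 kb with the combination and no peak with OTX015. CCR2, the receptor for CCL2, had 3.74 kb with the combination and 3.30 kb with OTX015. The loci of CCR1 and CCR3 adjoin on chromosome 3, so they can share peaks. Of the 21 receptor genes examined, 17 had cover, 13 with more and 4 with less in the combination list. The largest differences were at CCR3 (3.41 kb with the combination and no peak with OTX015), CXCR4 (2.13 kb with the combination and 0.255 kb with OTX015) and CCR1. The genes past 1.5 times numbered 10 toward the combination and 4 toward OTX015, of 17, beside 48.6% and 31.8% of all loci with cover in the same directions, and nothing was read from so few genes.

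**Figure D5:**
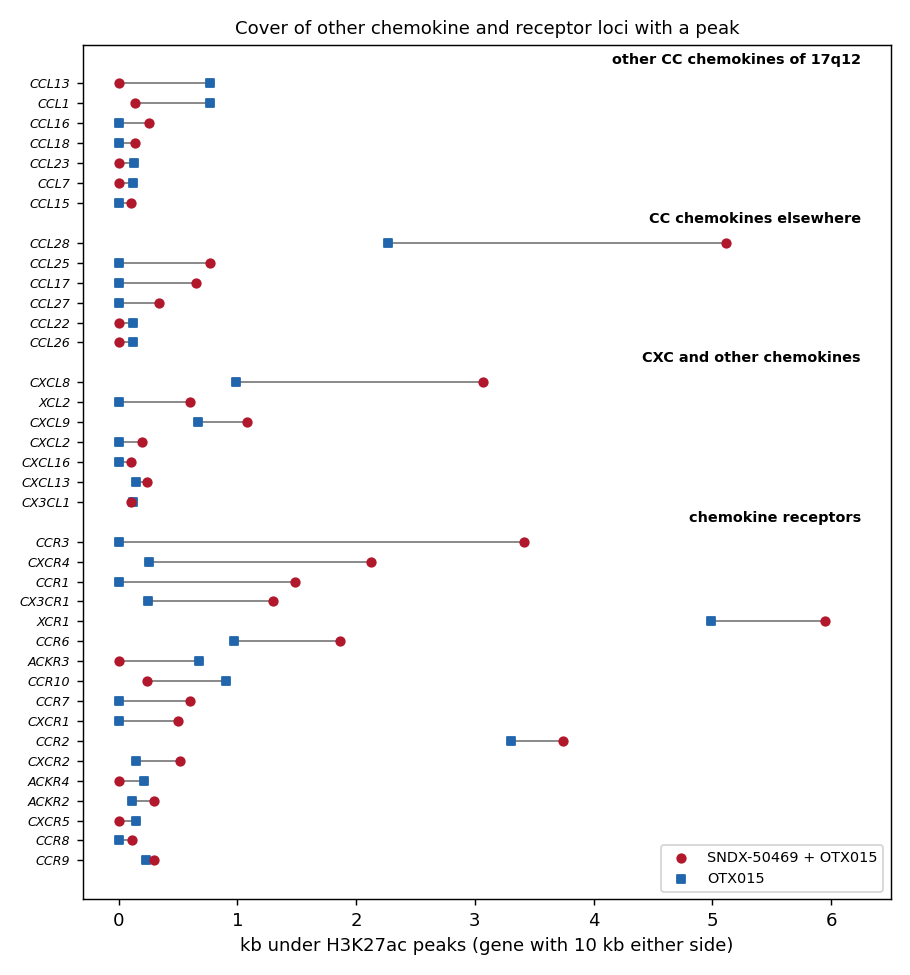
Length under H3K27ac peaks (kb, horizontal axis) in the loci of other chemokines and of chemokine receptors that had a peak, for SNDX-50469 plus OTX015 (red circles) and OTX015 (blue squares), 1 library each. The other 17q12 chemokines stay below 1 kb in both lists, whereas CCL28, CXCL8 and CCR3 reach 5.12, 3.07 and 3.41 kb with the combination. CCL28 lies on the densely covered chromosome 5.

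The genes outside chromosome 17 most like CCL3L3 in the 5′ window, by distance between their pairs of cover values, were TNF, ANXA13 and ZNF696. TNF, the inflammatory cytokine on chromosome 6, had 10.0 kb with the combination and 4.92 kb with OTX015, at a distance of 0.193 kb over the 2 libraries. ANXA13 had 9.79 kb with the combination and 5.11 kb with OTX015, and ZNF696 had 9.59 kb with the combination and 5.09 kb with OTX015, both on chromosome 8. All 3 lie on densely covered chromosomes, whereas CCL3L3 does not.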

How the data were processed

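Per the submitters' processing notes, the tools were bcl2fastq 2.17, Trimmomatic 0.33, Bowtie 1.1.2, MACS2 2.1.0 and deepTools, with GRCh38. Broad peaks were deposited as 1 list for each ChIP library. The deposited columns are a score, which is 10 times the −log10 q, the fold (a ratio of pileup to background), and the −log10 p and −log10 q of each peak, per the authors' peak caller. No input values were used here. The score was not used further. Background was solved as the constant that gives the fold and −log10 p of the lowest peaks for a whole pileup, with a pseudocount of 1, and peak folds were converted to multiples of it. Cover was summed over the union of peaks. Gene positions came from RefSeq GRCh38.p14. Strands came from GENCODE v44, by symbol. CCL3L1 and CCL4L1, placed by RefSeq on an alternate scaffold, were left out of the cover lists.

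The members and gene lists were chosen with earlier results of these data known. Genes named are the members, up to 3 per list by absolute difference, neighbours of the cluster with cover, and the 3 genes most like CCL3L3; CCR2, MPO, CD3E and the landmark genes HEATR9, TBC1D3I and LOC101927369 were named after their values were seen. Cover and background were tested on simulated data. Computations ran in Python 3.11.15 with matplotlib 3.10.9, pandas 2.3.3, numpy 2.4.6 and scipy 1.17.1. One receptor gene of the lists is not reported here.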

Additional observations from a re-analysis of the deposited data

How the results depend on the processing

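With all peaks, the cover of the 6 loci differed by 7.21 kb, combination minus OTX015, and 4 members were covered more. The difference stayed within 1.5 times of this when −log10 q had to reach 2, with equal numbers of peaks and in the 5′ window. It was 14.1 kb with 50 kb flanks, 11.4 kb with peaks within 1 kb merged, 0.557 kb without CCL3L3 and CCL4L2, 0.423 kb in the gene bodies alone and 0.122 kb with −log10 q of at least 5. It turned to −2.22 kb at a common enrichment over background, where that of CCL4L2 turned to −2.84 kb. That level could remove combination cover only. In gene bodies alone CCL4L2 turned to −0.024 kb and CCL5 to 0.236 kb, as CCL5 also did in the 5′ window (0.236 kb). The number of members covered more was 5 with 50 kb flanks and in the 5′ window. It was 2 with −log10 q of at least 2 and in gene bodies, and 1 with −log10 q of at least 5 and at the common enrichment. With at least 50% of a peak overlapped, 33.3% of combination and 75.0% of OTX015 peaks were met in the other list. No paired analysis was possible because each treatment has 1 library. At the common enrichment no combination peak of CCL4L2, CCL4, CCL5 or CCL2 was left.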
